A study of Mus musculus with 13 samples.

Results

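The 9 genes described here, Cx3cr1, P2ry12, Tmem119, Csf1r, C1qa, C1qb, Trem2, Aif1 and Cd68, are transcripts by which microglia, the resident macrophages of the brain, are commonly recognised. They were taken by name as 9 of the 54307 entries of the gene count table, and each was matched by its gene identifier to the GENCODE M21 annotation. Whole brain RNA had been sequenced from 13 C57BL/6 mice of 4 Adar genotypes. Adar encodes ADAR1, an enzyme that edits adenosine into inosine within RNA duplexes, and P195A is the mouse counterpart of human P193A, which alters the domain of the p150 form that binds Z-shaped RNA and DNA. The groups were P195A/+ (1 mutant and 1 wild-type allele, n = 3, all 43 days old), P195A/P195A (n = 4, 2 mice of 42 and 2 of 48 days), P195A/- (n = 3, all 42 days old) and wt (n = 3, 2 mice of 48 days and 1 of 74 days). Each group held 1 male and otherwise females. The short label P195A/- reads as the mutant allele opposite a null allele, whereas their longer genotype label lists P195A on each allele together with AdarKO/+, a conflict left unresolved in the labels. The labels name no Cre driver or cell type restriction, so microglia and the other brain cells are not separated by the alleles.

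Microglia stand apart from the neural cells around them by their myeloid origin, and their survival in the adult brain depends on signalling through CSF1R. In the undisturbed brain they express receptors that sense neurons, such as CX3CR1 for fractalkine and P2RY12 for ADP, and they are the main source of the complement protein C1q there. When microglia respond to injury, infection or interferon, the sensing receptors P2ry12, Tmem119 and Cx3cr1 typically go down. Phagocytic and lysosomal genes such as Trem2 and Cd68 go up in some reactive states, and their direction need not be the same for every stimulus. In tissue RNA a lower level of such a gene can come from fewer cells or from less RNA per cell, and these cannot be told apart.

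Total counts per library were 18540118 to 21272435 for the P195A/+ mice, 13539148 to 20688387 for P195A/P195A, 15591470 to 18359307 for P195A/-, and 17891377 to 22399005 for wt. Adar itself averaged 240 ± 6.63 CPM in P195A/+, 323 ± 28.6 CPM in P195A/P195A, 201 ± 4.28 CPM in P195A/- and 180 ± 13.3 CPM in wt (SD, n = 3, 4, 3 and 3), where CPM is the usual count scaled to library size. Since a null allele can still be transcribed in part, these levels do not settle the label of P195A/-. Of the 13 libraries, replicates 2 and 3 of P195A/P195A stood at the 2 ends of the first principal component (20.4% of the variance), and replicate 2 had the smallest total. The spread of the markers, their correlations and the fold changes of C1qb, Tmem119 and Cd68 are given with and without 1 or both of these libraries.

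Of the 9 genes, 6 had a RefSeq promoter window in the table used here (GRCm38.p6, 250 bases before to 50 bases after the start), while Tmem119, Csf1r and C1qa had none. Windows of C1qb, P2ry12 and Trem2 are shown because C1qb and P2ry12 lie at the opposite ends of the correlations between markers, and Trem2 is the receptor of the set tied to reactive states. The capitals mark matches, on either strand, to GAGGAA (the PU box, the letters preferred by the myeloid factor PU.1) and to GGAAGT (a core of ETS-family factors in general), which can overlap each other. The windows are chr4:136886151-136886450 on the minus strand for C1qb, chr3:59262936-59263235 on the minus strand for P2ry12 and chr17:48346151-48346450 on the plus strand for Trem2.
C1qb: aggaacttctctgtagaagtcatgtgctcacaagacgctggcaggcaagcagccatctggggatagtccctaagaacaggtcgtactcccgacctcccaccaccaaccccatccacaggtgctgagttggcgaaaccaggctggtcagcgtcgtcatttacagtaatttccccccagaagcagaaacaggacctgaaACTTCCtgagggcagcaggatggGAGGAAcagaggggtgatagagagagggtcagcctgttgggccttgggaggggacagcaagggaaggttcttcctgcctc
P2ry12: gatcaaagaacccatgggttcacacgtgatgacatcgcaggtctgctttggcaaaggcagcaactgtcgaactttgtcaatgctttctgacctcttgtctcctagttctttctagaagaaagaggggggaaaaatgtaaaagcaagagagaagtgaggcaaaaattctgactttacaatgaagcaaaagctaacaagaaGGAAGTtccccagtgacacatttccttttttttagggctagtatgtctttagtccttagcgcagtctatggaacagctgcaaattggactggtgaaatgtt
Trem2: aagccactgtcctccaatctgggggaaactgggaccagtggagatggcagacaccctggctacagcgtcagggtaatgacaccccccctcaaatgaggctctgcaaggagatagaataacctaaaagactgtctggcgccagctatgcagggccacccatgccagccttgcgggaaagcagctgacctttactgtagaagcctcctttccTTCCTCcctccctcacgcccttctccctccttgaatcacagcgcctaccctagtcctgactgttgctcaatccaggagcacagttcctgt
The PU box letters stood in 4 of the 6 marker windows (C1qb, Cd68, Aif1 and Trem2) and in 28.3% of all 32851 promoter windows. The ETS core letters stood in 3 of 6 (P2ry12, C1qb and Cd68) and in 23.8% of all windows. Neither was found in the Cx3cr1 window, which says nothing of either factor there. 

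All 9 are protein-coding genes. C1qa (chr4:136895917-136898803) and C1qb (chr4:136880129-136886187) are neighbours on the minus strand of chromosome 4. Aif1 (chr17:35170991-35176068, minus strand) and Trem2 (chr17:48346401-48354147, plus strand) lie apart on chromosome 17. Cx3cr1 is at chr9:119901616-120069879, P2ry12 at chr3:59216272-59262871, Tmem119 at chr5:113793729-113800516, Csf1r at chr18:61100598-61132149 and Cd68 at chr11:69664213-69666153 (GRCm38). The deposited table has 1 entry per gene, so the values describe the whole gene and not single exons or untranslated regions.

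All 9 markers were detected in every library and passed the filter on low counts, so none was kept by the level of 1 genotype alone. Levels of different genes can be compared only per length, here as CPM per kb of the longest coding transcript. On that scale C1qb (15.4 CPM per kb, mean of 13 libraries) and Csf1r (14.1) came first, and C1qb was the higher of the pair in 9 of 13 libraries. Cx3cr1 followed at 8.07, P2ry12 at 7.18, C1qa at 7.11, Trem2 at 5.64 and Tmem119 at 5.32 CPM per kb. Cd68 at 1.30 and Aif1 at 0.664 CPM per kb were lowest, with Aif1 below all others in 11 of 13 libraries. C1qb and Csf1r, P2ry12 and C1qa, and Trem2 and Tmem119 were neighbours that differed by less than their spread between libraries, with coefficients of variation of 13.5% for Csf1r, 26.3% for C1qb, 19.7% for P2ry12, 20.2% for C1qa, 21.2% for Trem2 and 17.3% for Tmem119. Aif1 rested on at most 20 counts and Cd68 on at most 52 counts in any library, so these are the least precise of the set, although their proteins, IBA1 and the CD68 lysosomal glycoprotein, are the ones most used to stain microglia.

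No marker passed the test between genotypes. In each of the 4 comparisons, and in a test of any difference among the 4 genotypes, 0 of 9 passed at an adjusted p under 0.05 (edgeR's quasi-likelihood test with Benjamini-Hochberg adjustment over 19962 genes), and 0 of 9 had an unadjusted p under 0.05. DESeq2 and limma-voom called 0 of the markers they could test. The background is low as well. Of all genes tested, 0.01% were called in P195A/+ against wt, 0.0501% in P195A/P195A against wt, 0.0351% in P195A/- against wt, 0.0401% in P195A/- against P195A/P195A and 0.115% in the test over 4 genotypes. The shares with an unadjusted p under 0.05 were 4.48%, 5.89%, 10.6%, 6.82% and 8.59% in the same order, and 0 of 9 is a share near these.

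The median log2 fold change of the 9 markers was -0.026 in P195A/+ against wt, beside 0.0041 for all genes tested. It was -0.031 in P195A/P195A against wt (all genes 0.0067), -0.051 in P195A/- against wt (all genes 0.020) and 0.013 in P195A/- against P195A/P195A (all genes 0.0037). The comparisons against wt share its 3 libraries, and the comparisons with P195A/P195A share its 4. By direction, 6 markers were lower and 3 higher in P195A/+, 7 lower and 2 higher in P195A/P195A, and 5 lower and 4 higher in P195A/-, each against wt, while 48.6% and 46.9% of all genes were lower in P195A/P195A and P195A/-. For 7 of the 9, every one of the 4 intervals (95%) of the fold change lay within a 2-fold change in either direction, and for Aif1 and Cd68 they reached beyond it. Of these 36 small differences, 27 turned sign under at least 1 other setting.

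**Figure D1:**
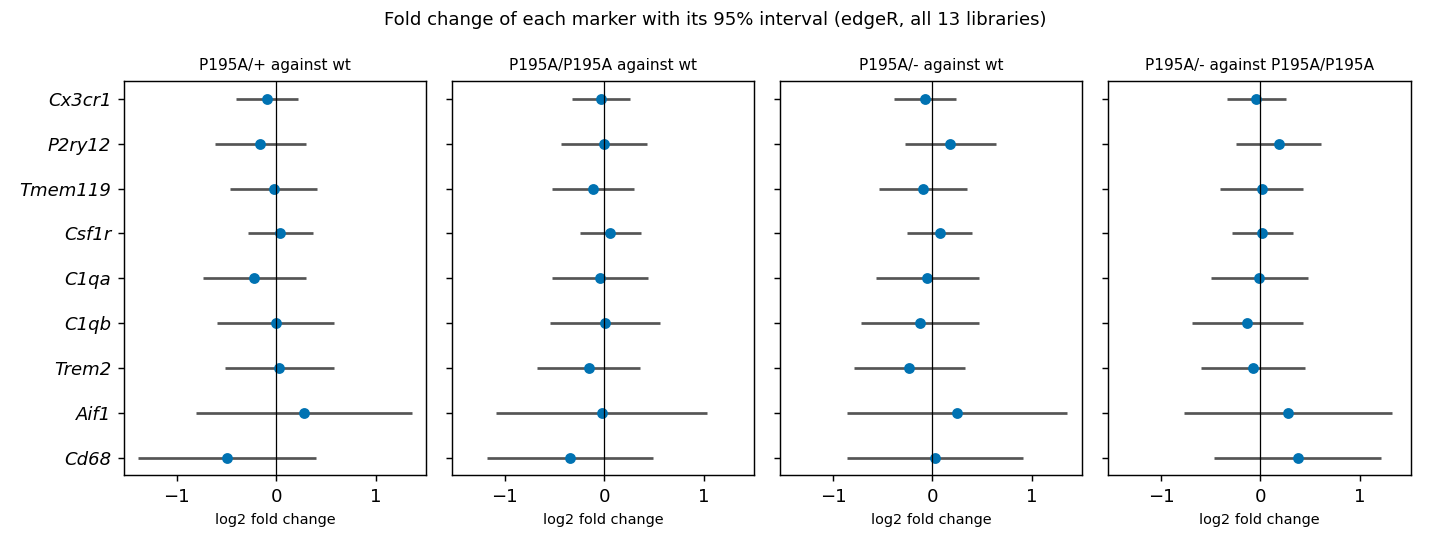
Log2 fold change (x axis) of each of the 9 markers (rows) in the 4 comparisons, points with 95% intervals from the edgeR fit over 13 libraries; positive means higher in the genotype named first. All intervals cross 0, and those of Cx3cr1 and Csf1r are the narrowest while Aif1 and Cd68 reach beyond a 2-fold change.

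Among the sensing receptors, Cx3cr1, which binds the neuronal chemokine fractalkine, had 40.9, 31.7 and 32.9 CPM in P195A/+, 38.7, 28.5, 42.7 and 36.6 CPM in P195A/P195A, 37.8, 39.3 and 29.7 CPM in P195A/-, and 38.3, 37.1 and 37.0 CPM in wt. The wt libraries lay close together inside the range of each mutant group. The log2 fold change was -0.09 (95% interval -0.40 to 0.22) in P195A/+, -0.03 (-0.33 to 0.26) in P195A/P195A mice and -0.07 (-0.39 to 0.24) in P195A/-, each against wt.

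P2ry12, the ADP receptor that guides microglial processes toward damage, had 16.8, 11.7 and 16.4 CPM in P195A/+, 16.9, 10.7, 17.7 and 21.4 CPM in P195A/P195A, 16.6, 16.8 and 23.5 CPM in P195A/-, and 17.6, 16.2 and 16.3 CPM in wt. Single libraries were low in P195A/+ and P195A/P195A and a single one was high in P195A/-, and all groups overlapped. The log2 fold change of P195A/- was 0.18 against wt (-0.28 to 0.64) and 0.18 against P195A/P195A (-0.25 to 0.61).

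Tmem119, a membrane protein that separates microglia from other macrophages, had 10.7, 14.9 and 11.1 CPM in P195A/+, 10.2, 9.56, 16.1 and 10.2 CPM in P195A/P195A, 13.6, 11.8 and 9.55 CPM in P195A/-, and 11.4, 12.9 and 13.1 CPM in wt. Replicate 3 of P195A/P195A stood far above the other 3 libraries of its group. The log2 fold change was -0.03 in P195A/+, -0.11 in P195A/P195A mice and -0.10 in P195A/-, with intervals between -0.54 and 0.41 in these comparisons against wt. With replicate 3 of P195A/P195A left out, the log2 fold change of P195A/P195A against wt was -0.32 (adjusted p = 0.381, edgeR's quasi-likelihood test).

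Csf1r, the receptor for CSF1 and IL-34 and the most abundant marker in counts, had 69.1, 59.8 and 68.8 CPM in P195A/+, 65.2, 48.8, 88.6 and 64.2 CPM in P195A/P195A, 60.7, 72.8 and 69.2 CPM in P195A/-, and 65.2, 63.5 and 63.7 CPM in wt. The wt libraries again fell inside each mutant range, with a coefficient of variation of 1.45% in wt against 24.6% in P195A/P195A. The log2 fold change against wt was 0.04 (-0.29 to 0.37) in P195A/+, 0.06 (-0.25 to 0.36) in P195A/P195A mice and 0.08 (-0.25 to 0.40) in P195A/-. Csf1r shares 15.1% of its exon bases with Hmgxb3 on the other strand, and the libraries are stranded per the options in the file headers.

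Of the C1q chains, C1qb had 14.9, 19.2 and 17.1 CPM in P195A/+, 11.3, 13.1, 29.2 and 14.9 CPM in P195A/P195A, 18.1, 16.1 and 12.9 CPM in P195A/-, and 15.6, 16.7 and 19.1 CPM in wt. P195A/P195A spanned both the highest and the lowest value of the series, and its mean of 17.1 ± 8.17 CPM matched the wt mean of 17.1 ± 1.78 CPM (SD, n = 4 and 3). That match rested on replicate 3 of P195A/P195A. With that library left out, the log2 fold change was -0.39 (adjusted p = 0.284, edgeR's quasi-likelihood test, the lowest adjusted p of any marker under any setting), against 0.0059 with it.

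C1qa, the A chain, had 6.88, 6.53 and 6.66 CPM in P195A/+, 5.39, 5.25, 10.9 and 8.61 CPM in P195A/P195A, 6.60, 8.18 and 7.77 CPM in P195A/-, and 8.15, 6.94 and 8.27 CPM in wt. The P195A/+ libraries lay just below all wt libraries, at a log2 fold change of -0.22 (-0.74 to 0.30). Cd68 likewise had 1.47, 1.21 and 1.24 CPM in P195A/+, below its 1.91, 1.63 and 1.99 CPM in wt, at -0.50 (-1.39 to 0.40). These 2 of 9 were the only markers whose groups did not overlap in any of the 4 comparisons, and 6.32% of all genes were non-overlapping and lower in P195A/+ against wt. The same share was 3.79% in P195A/P195A and 10.5% in P195A/-, each against wt, and 4% in P195A/- against P195A/P195A. In C1q protein, A and B chains pair with a C chain, whose gene C1qc averaged 4.65 ± 0.597 CPM in P195A/+, 4.68 ± 1.23 CPM in P195A/P195A, 5.98 ± 1.19 CPM in P195A/- and 4.57 ± 0.62 CPM in wt.

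Trem2, a lipid-sensing receptor, ranged over 5.56 to 7.50 CPM in P195A/+, 4.43 to 8.35 CPM in P195A/P195A, 3.97 to 6.77 CPM in P195A/- and 5.63 to 7.81 CPM in wt. The groups overlapped, with a log2 fold change of -0.23 (-0.79 to 0.32) in P195A/- against wt. Its signalling partner Tyrobp averaged 2.18 ± 0.308 CPM in P195A/+, 2.64 ± 0.561 CPM in P195A/P195A, 2.46 ± 0.736 CPM in P195A/- and 1.95 ± 0.509 CPM in wt. The remaining Cd68 values were 1.38, 0.511, 2.55 and 1.24 CPM in P195A/P195A and 1.31, 2.44 and 1.89 CPM in P195A/-, so the span of P195A/P195A took in every other library. The log2 fold change of Cd68 in P195A/P195A against wt was -0.35, and it was -0.80 (adjusted p = 0.319, edgeR) without replicate 3 and -0.081 (adjusted p = 0.999, edgeR) without replicate 2. In P195A/- against P195A/P195A it was 0.38, and 0.83 and 0.10 without the same libraries. Aif1 ranged over 0.290 to 0.951 CPM in P195A/+, 0.299 to 0.737 CPM in P195A/P195A, 0.488 to 0.809 CPM in P195A/- and 0.406 to 0.786 CPM in wt, with no group apart.

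**Figure D2:**
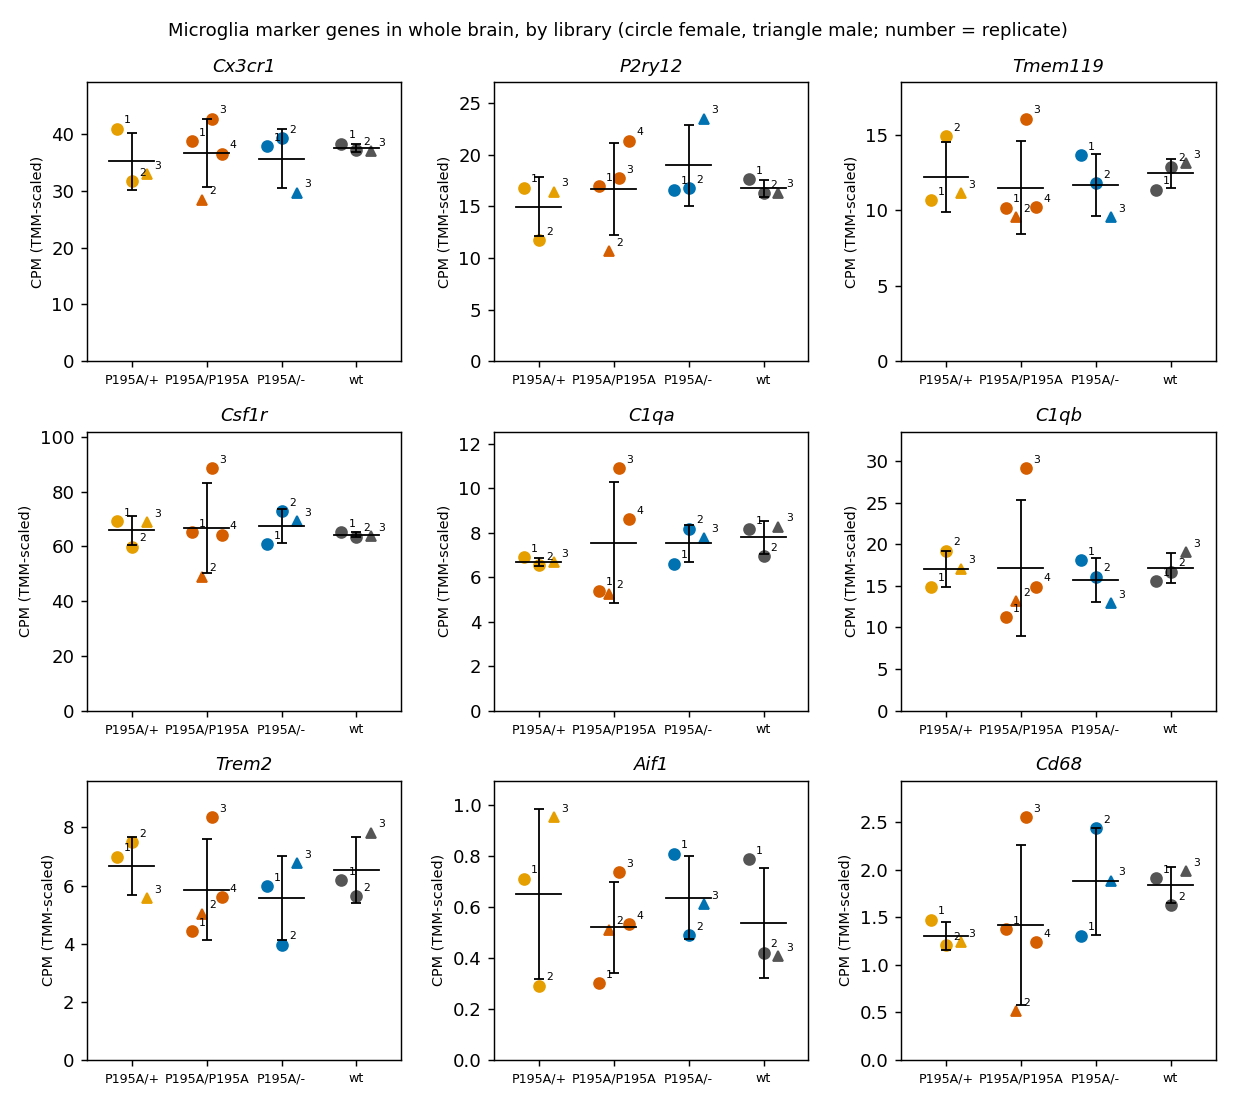
CPM (y axis, from 0) of each marker by library in P195A/+, P195A/P195A, P195A/- and wt; circles are females, triangles males, numbers are replicates, and lines with bars give the mean and SD (n = 3, 4, 3 and 3). The groups share their range in nearly every panel, and replicate 3 of P195A/P195A lies at the top and replicate 2 near the bottom of most panels.

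The markers varied more among P195A/P195A mice than among wt mice. Their coefficient of variation had a median of 29.6% in P195A/P195A and 9.42% in wt, and it was larger in P195A/P195A for 8 of 9 (Aif1 was the exception). The same median over all genes tested was 17.7% in P195A/P195A and 11.6% in wt, and 69.7% of all genes had the larger value in P195A/P195A. In P195A/+ and P195A/- the medians of the markers were 14.3% and 17.5%, beside 13.4% and 14.1% over all genes. The difference in spread was not tested. Without replicate 3 of P195A/P195A the median of the markers was 15.6% (all genes 14%), and 6 of 9 had the larger value in P195A/P195A. Without replicate 2 it was 32.8% (all genes 15.5%) with 9 of 9 larger, and without both it was 16.2% over the 2 libraries left (all genes 8.94%) with 4 of 9 larger.

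Both ends of that spread lay in single libraries. Replicate 3 of P195A/P195A, a female of 48 days, held the highest value of the series for 7 of 9 markers (all but P2ry12 and Aif1) and lay above the mean for 9 of 9, by a median of 0.445 on the log2 scale. Replicate 2 of P195A/P195A, a male of 42 days, held the lowest value for 5 of 9 and lay below the mean for 9 of 9, with a median deviation of -0.338. Summed over the 9 markers, the level was 217 CPM in replicate 3 and 122 CPM in replicate 2, while the other 11 libraries lay between 153 and 172 CPM. Of all genes tested, 12% were highest in replicate 3 and 15.8% were lowest in replicate 2, and about equal shares lay above and below the mean in each.

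These libraries also differed in composition. Across genes, the deviation from the mean correlated with GC content at 0.345 in replicate 3 and -0.394 in replicate 2, the outermost values of the 13 libraries (across 17340 genes, which are not independent replicates). With the trend on GC content and length removed, the median deviation of the markers was 0.375 and -0.208, with 9 and 0 of 9 above the mean. Lists of other cells moved with them in part. Replicate 3 and replicate 2 had 4246 and 3557 CPM of summed neuronal markers, 1488 and 1341 CPM of astrocyte markers, 4944 and 5394 CPM of oligodendrocyte markers, 242 and 205 CPM of endothelial and pericyte markers, and 41.0 and 35.3 CPM of border macrophage markers. The other myeloid genes summed to 211 and 143 CPM. Monocyte and neutrophil markers summed to 12.6 and 2.41 CPM, the highest and lowest of the 13 libraries. T and B cell markers went the other way, at 3.49 and 6.79 CPM. The part of GC content, depth or cell makeup in the markers' spread was not tested.

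**Figure D3:**
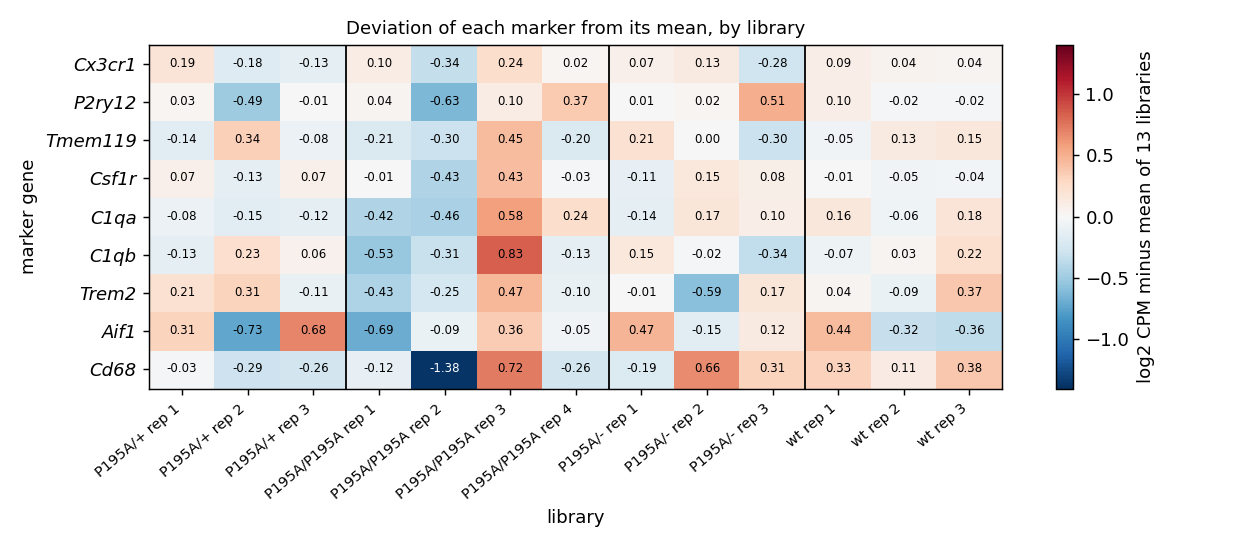
Deviation of each marker (rows) from its mean over the 13 libraries, in log2 CPM, by library (columns, ordered P195A/+, P195A/P195A, P195A/- and wt). The column of P195A/P195A replicate 3 is positive for 9 of 9 markers and that of replicate 2 negative for 9 of 9, while the other columns hold both signs.

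Between markers, 33 of the 36 pairs correlated positively over the 13 libraries, with a median Pearson r of 0.42. Taken within genotypes the median was 0.428. Without replicates 2 and 3 of P195A/P195A it was 0.0446, with 20 of 36 pairs positive, and with the GC and length trend removed in all 13 libraries it was 0.313. Replicates 2 and 3 were left out after the values were seen, and they held the lowest or highest values of most markers. Leaving out such libraries tends by itself to lower r between markers. The fall in the median therefore does not show what the joint variation rested on.

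Tmem119 and C1qb were the most alike pair (r = 0.896, Spearman's rho = 0.94, both p = 1e-05, the smallest that 100000 permutations can give, two-sided, BH-adjusted 0.00036 over 36 pairs). Over 11 libraries the pair still had r = 0.85 and rho = 0.918 (permutation p = 0.00082 and 0.00021, adjusted 0.0148 and 0.00756), and without the 2 libraries farthest from the median of Tmem119 r was 0.847. P2ry12 and Tmem119, both receptors or membrane proteins of resting microglia, did not go together. Their r was -0.212 over 13 libraries (permutation p = 0.493, adjusted 0.613) and -0.812 over 11 (permutation p = 0.00054, adjusted 0.0148; rho = -0.827, p = 0.00277, adjusted 0.0332), and without the 2 libraries farthest from the median of P2ry12 r was -0.511. P2ry12 and C1qb had rho = -0.836 over 11 libraries (permutation p = 0.00222, adjusted 0.0332), where r was -0.591 (p = 0.0598, adjusted 0.525), and rho = -0.319 over 13 (p = 0.289, adjusted 0.513). Csf1r and Cd68 had r = 0.844 over 13 libraries (permutation p = 0.00084, adjusted 0.0151) and 0.541 over 11 (p = 0.0875, adjusted 0.525), and rho was 0.687 over 13 libraries (adjusted 0.104). In all, 4 of 36 pairs passed on r over 13 libraries and 2 of 36 over 11. On rho, 1 of 36 passed over 13 libraries and 3 of 36 over 11. The 11 libraries exclude those where most markers stood highest or lowest, a choice made after the values were seen. That choice tends by itself to push r and rho down. The p-values over 11 libraries carry it and are a description only. Permutations ran over the libraries regardless of genotype, age and sex. All values here share their library, so depth and composition enter both members of a pair. In GC content, P2ry12 was the lowest of the 9 markers at 38.6%, beside 59.1% for Tmem119 and 57.4% for C1qb. The part of GC content in these pairs was not tested.

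The non-member genes of at least 1 CPM with the highest median r with the 9 markers were Caly (0.716), Cnih3 (0.71), Atmin (0.705), Itgb5 (0.702), Igfn1 (0.692) and Rps19 (0.688), each over 13 libraries and given as a description. Over 11 libraries their median r with the markers was 0.32, 0.133, 0.272, 0.0838, 0.281 and -0.0348. Only Itgb5 of these belongs to a gene list used here, that of genes enriched in homeostatic microglia. Its median r over 11 libraries was 0.0838. The median r between the markers themselves also fell, from 0.42 over 13 libraries to 0.0446 over 11. Picking genes for a high r over 13 libraries tends by itself to give a lower r over 11. The fall therefore does not show whether these genes belong to microglia, and that was not tested.

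**Figure D4:**
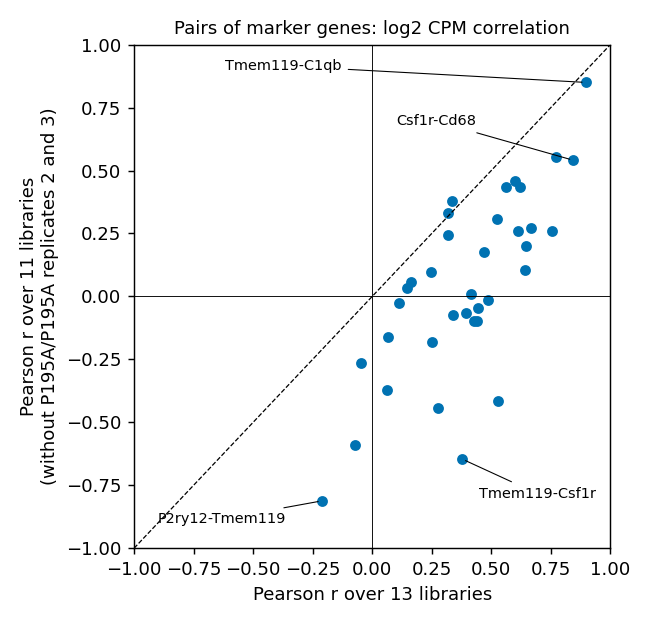
Pearson r of log2 CPM for each of the 36 pairs of markers over 13 libraries (x axis) and over the 11 left without P195A/P195A replicates 2 and 3 (y axis), with the line of equality dashed. Most points lie below the line, Tmem119 with C1qb stays near 0.9 and 0.85, and P2ry12 with Tmem119 lies at -0.212 and -0.812.

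Other genes of the same cells did not pass the test either. Of 20 further genes enriched in homeostatic microglia, 19 were measured, and 0 passed the adjusted test in any comparison (edgeR). Against wt, the list's median log2 fold change came to 0.011 in P195A/+, -0.015 in P195A/P195A mice and -0.010 in P195A/-. Within that list Fcrls, an Fc receptor-like gene largely restricted to microglia in the mouse brain, had the smallest p in P195A/-. It had 10.02, 10.9 and 8.16 CPM in P195A/-, 21.4, 12.7, 28.2 and 16.1 CPM in P195A/P195A, 21.2, 19.7 and 24.7 CPM in P195A/+, and 20.6, 20.2 and 16.8 CPM in wt. The 3 P195A/- libraries lay below the other 10, and 10.5% of all genes were non-overlapping and lower against wt and 4% against P195A/P195A. The log2 fold change of P195A/- was -0.98 ± 0.23 (SE) against wt (adjusted p = 0.192) and -1.02 ± 0.22 against P195A/P195A (adjusted p = 0.193, edgeR's quasi-likelihood test), so neither passed. DESeq2 called both (adjusted p = 0.0083 and 0.0034), the second also passed in edgeR without P195A/P195A replicate 2 (log2 fold change -1.19, adjusted p = 0.0314), and over all settings the adjusted p ran between 0.0083 and 0.961 against wt and between 0.0034 and 0.788 against P195A/P195A. Sall1, the transcription factor that maintains microglial identity, was the gene with the smallest p in P195A/P195A against wt, with 22.8 ± 1.27 against 18.7 ± 2.39 CPM (SD, n = 4 and 3; adjusted p = 0.83, edgeR). In P195A/- it had 16.8 to 18.0 CPM, below the 21.2 to 23.9 CPM of P195A/P195A with no overlap (log2 fold change -0.39 ± 0.13, unadjusted p = 0.00751, adjusted p = 0.57, edgeR). The share of 4% of all genes given for Fcrls applies to that comparison too.

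The shared myeloid genes, 22 of 22 measured, had medians of -0.13 in P195A/+, 0.020 in P195A/P195A mice and 0.10 in P195A/- against wt, and 0 passed the adjusted test (edgeR). Spi1, which encodes PU.1, had 0.601, 0.387 and 0.238 CPM in P195A/+, 2.10, 1.31, 2.01 and 0.354 CPM in P195A/P195A, 0.560, 0.793 and 1.17 CPM in P195A/-, and 0.337, 1.21 and 4.16 CPM in wt, a spread within wt as wide as that between groups. Of the genes that rise in disease-associated microglia, 15 of 23 were measured and 0 passed (edgeR), with medians of -0.020, -0.11 and 0.094 in P195A/+, P195A/P195A and P195A/- against wt. Ctsb, the lysosomal protease cathepsin B, averaged 490 ± 45.8 CPM in P195A/- and 613 ± 47.9 CPM in wt (log2 fold change -0.32, adjusted p = 0.321, edgeR), and it is expressed well beyond microglia. Cst7, Ccl3 and Ccl4, which mark the reactive state more narrowly, were at 0 in 7, 11 and 11 of 13 libraries and reached at most 3, 2 and 1 counts.

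Among ligands and partners of the markers, 17 of 18 were measured and 0 passed (edgeR), with median log2 fold changes of -0.077, -0.076 and 0.29 in P195A/+, P195A/P195A and P195A/- against wt, and 0.24 in P195A/- against P195A/P195A. The fractalkine gene Cx3cl1, chosen with Il34, Csf1, C1qc and Tyrobp as direct partners after the values were seen, averaged 216 ± 18.5 CPM in P195A/+, 196 ± 45 CPM in P195A/P195A, 204 ± 14.2 CPM in P195A/- and 203 ± 12 CPM in wt. Il34, the neuronal ligand of CSF1R, averaged 21.0 ± 1.53 CPM in P195A/+, 19.3 ± 3.87 CPM in P195A/P195A, 18.7 ± 1.99 CPM in P195A/- and 22.2 ± 3.52 CPM in wt. Csf1, the other ligand, had 15.9, 17.2 and 16.9 CPM in P195A/-, 11.8, 10.8, 12.1 and 12.4 CPM in P195A/P195A, and 15.4, 14.3 and 13.9 CPM in wt. The P195A/- and P195A/P195A libraries did not overlap, and their log2 fold change was 0.50 ± 0.13 (SE, not past the test, adjusted p = 0.387, edgeR), and 2.64% of all genes were non-overlapping and higher in that comparison. C3, the complement component that C1q activation leads to, had 4.42, 2.01 and 2.17 CPM in P195A/- and 0.506, 1.16 and 1.36 CPM in wt, without overlap, where 9.59% of all genes were non-overlapping and higher (log2 fold change 1.49 ± 0.43, adjusted p = 0.256, edgeR). Tgfb1 averaged 3.28 ± 1.04 CPM in P195A/+, 3.48 ± 1.02 CPM in P195A/P195A and 2.01 ± 0.332 CPM in wt (adjusted p = 0.999 and 0.83, edgeR).

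**Figure D5:**
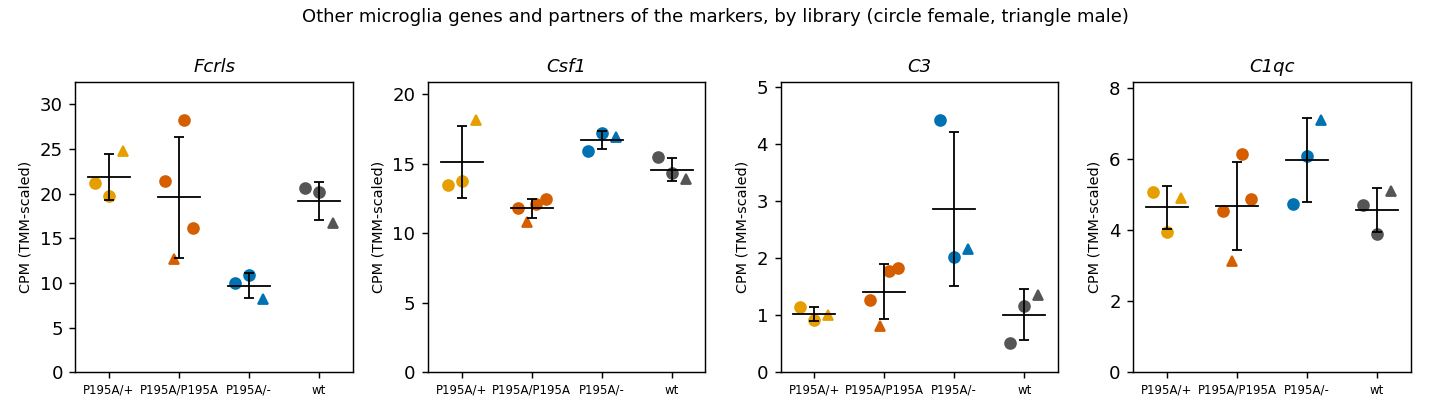
CPM (y axis, from 0) by library of Fcrls, Csf1, C3 and C1qc in P195A/+, P195A/P195A, P195A/- and wt; circles are females, triangles males, lines with bars the mean and SD (n = 3, 4, 3 and 3). Fcrls in P195A/- lies at 8.16 to 10.9 CPM, below all other libraries.

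Interferon-stimulated genes that microglia can express, though other brain cells express them too, were set beside the markers because loss of ADAR1 activity is known to set off interferon signalling. Of 20, 16 were measured, and 0 passed the adjusted test in any comparison (edgeR). P195A/- exceeded wt in 15 of 16, at a median log2 fold change of 0.65 beside 0.020 for all genes, and 7 of 16 had an unadjusted p under 0.05, where 4.58% of all genes were higher at that level. P195A/- also exceeded P195A/P195A in 16 of 16, at a median log2 fold change of 1.13, where the median of all genes was 0.0037. Of the 16, 10 had an unadjusted p under 0.05, where 3.19% of all genes were higher at that level. Ifi27l2a averaged 0.899 CPM in P195A/-, 0.182 CPM in wt, 0.172 CPM in P195A/P195A and 0.0681 CPM in P195A/+. With a minimum count of 10, it passed the filter on low counts through P195A/-, which favours a higher level there. It is counted in all of these figures for P195A/-. The list was chosen with earlier results of these data known. In P195A/+ 14 of 16 and in P195A/P195A 12 of 16 were lower than in wt, where 49.2% and 48.6% of all genes were lower. Their medians were -0.39 and -0.26, beside 0.0041 and 0.0067 for all genes. Of the 16, 4 and 3 were lower at an unadjusted p under 0.05 (edgeR), where 2.52% and 2.94% of all genes were. Ifit1, an RNA-binding effector, had 4.60, 6.71 and 5.50 CPM in P195A/-, 1.497, 2.33, 2.70 and 1.83 CPM in P195A/P195A, and 2.13, 2.00 and 3.48 CPM in wt. Its P195A/- libraries lay above all others, with a log2 fold change over wt of 1.14 ± 0.29 (SE, adjusted p = 0.221) and 1.42 ± 0.28 (adjusted p = 0.106, edgeR's quasi-likelihood test) against P195A/P195A, and the second was called by DESeq2 (adjusted p = 0.0019) and by edgeR with no filter on low counts (adjusted p = 0.0311). DESeq2 gave no adjusted p for Ifit1 against wt. Of all genes, 9.59% were non-overlapping and higher in P195A/- against wt, and 2.64% against P195A/P195A. B2m, which belongs to the disease-associated list and is itself interferon-responsive, averaged 17.8 ± 7.14 CPM in P195A/- and 10.7 ± 2.82 CPM in P195A/P195A (log2 fold change 0.73, adjusted p = 0.57, edgeR). Replicate 3 of P195A/- stood highest at 26.0 CPM, and the log2 fold change was 0.35 without it. Mitochondrial counts made up 1.565% of that library and 0.457% to 0.789% of the other 12, and their part in the B2m level was not tested. Over the same libraries the microglia markers summed to 162 to 172 CPM in P195A/-, 122 to 217 CPM in P195A/P195A, 153 to 168 CPM in P195A/+ and 161 to 168 CPM in wt.

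Markers of other immune cells were lower in sum than the 9 microglia markers, though single ones stood above several of these in CPM. CPM does not allow for gene length, so such comparisons between genes are a description only. Border macrophages, which share several of the 9 genes with microglia, had 9 of 10 markers measured and a sum of 27.6 to 48.0 CPM in P195A/+, 33.1 to 41.0 CPM in P195A/P195A, 35.8 to 41.4 CPM in P195A/- and 34.9 to 39.7 CPM in wt, and 0 passed (edgeR). Stab1 of that list averaged 25.7 CPM in P195A/+, 21.5 CPM in P195A/P195A, 22.6 CPM in P195A/- and 21.6 CPM in wt. In CPM these lay above the group means of all microglia markers but Cx3cr1 and Csf1r. Lyve1, the gene of that list with the smallest p, had 0.437, 0.387 and 0.713 CPM in P195A/+ and 1.07, 2.10 and 0.632 CPM in wt. Of T and B cell markers, Cd3g was at 0 in 13 of 13 libraries and Cd3e in 11 of 13. Of the 3 that passed the filter, Ms4a1 averaged 3.91 ± 1.82 CPM in P195A/+, 3.69 ± 1.13 CPM in P195A/P195A, 3.99 ± 1.41 CPM in P195A/- and 3.32 ± 0.74 CPM in wt, above Cd68 and Aif1 in CPM, and Cd8a averaged 1.03 to 1.28 CPM by group. Trac averaged 0.290 ± 0.197 CPM in P195A/P195A and 0.982 ± 0.746 CPM in wt (unadjusted p = 0.0267, adjusted p = 0.83, edgeR). The list summed to 5.18 to 7.49 CPM in P195A/+, 3.49 to 6.79 CPM in P195A/P195A, 5.22 to 6.59 CPM in P195A/- and 5.52 to 5.90 CPM in wt. Monocyte and neutrophil markers summed to 4.09 to 4.45 CPM in P195A/+, 2.41 to 12.6 CPM in P195A/P195A, 4.39 to 10.2 CPM in P195A/- and 3.39 to 8.03 CPM in wt. In P195A/P195A the low and high ends of that range were replicates 2 and 3, and those of the T and B cell list replicates 3 and 2. The part of other immune cells in the marker levels was not tested.

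None of the markers held an editing site that could be read. Of the 104199 distinct positions in the site tables used here, 0 lay within the annotated span of any of the 9 genes, so editing within them was not analysed here.

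Age differed with genotype. No mutant mouse was older than 48 days and no wt mouse younger, so in P195A/+ and P195A/- against wt age and genotype cannot be told apart. Among mice of 48 days alone (2 of P195A/P195A and 2 of wt), 0 of 9 markers passed (edgeR), and 7 of the 9 changed the sign of their log2 fold change, among them Cd68, with 0.11 against -0.35 over all ages, and C1qa, with 0.37 against -0.04. The P195A/P195A mice of 48 days were replicates 3 and 4. That set thus kept replicate 3, the library highest for 7 of 9 markers, and dropped replicate 2. With replicate 3 left out and all ages kept, P195A/P195A against wt gave -0.80 for Cd68 and -0.27 for C1qa. The part of age in the sign changes was not tested. Each group held 1 male, and with females alone 0 of 9 passed in any comparison.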

How the data were processed

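The authors deposited an estimated count per gene, not a whole number in 99.5% of nonzero values, and the submitters' processing notes list fastp 0.19.5, Salmon and edgeR without giving their roles. With the annotation release not given in the sources used here, genes were matched to GENCODE M21 (GRCm38) by unversioned gene ID. Other deposited files are JACUSA2 2.0.0-RC5 tables of base counts at listed sites on mm10, of which only positions were used. Groups came from the labels. Counts were rounded and fitted in edgeR 4.0.16 (R 4.3.3; robust quasi-likelihood, TMM, filterByExpr with minimum count 10) over all 13 libraries with 1 coefficient per genotype, at a Benjamini-Hochberg adjusted p under 0.05 over 19962 genes; the code was tested on simulated data. Log2 CPM used a prior count of 2. Entries without an annotated symbol held 0.68% of counts. Alternatives included DESeq2 1.42.0 and limma 3.58.1. Members and lists were chosen with earlier results of these data known. Named beyond the members were, per list and comparison, the gene with the smallest p where under 0.05 unadjusted, some direct partners and cell markers chosen after the values were seen, and the 6 genes most like the members. The p-values from edgeR set differences between genotype means against the model's estimate of spread between animals. Those of the pairs came from permuting libraries. Intervals rest on the model's estimate of spread.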

Additional observations from a re-analysis of the deposited data

Results flagged for a closer look

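In the 4 P195A/P195A libraries, 3 of 26 series examined (the 9 markers, their sum and 16 further named genes) held a library whose gap to its neighbour was a large share of the whole range. Tmem119 was at 16.1 CPM in replicate 3, with a gap of 0.901 of the range. Il34, a ligand of CSF1R, was at 25.1 CPM in the same replicate, with a gap of 0.918. Oasl2, an interferon-stimulated gene, was at 2.24 CPM in replicate 4, with a gap of 0.843. Chance flags about 1 in 20 such groups, and the groups of 3 were not examined. Replicate 3 is also an end of the first principal component and the library highest for 7 of 9 markers.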

How the results depend on the processing

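No marker passed in any of 818 values under other settings (lowest adjusted p 0.284), and 96 of 613 fold changes of markers turned sign, none larger than 0.35 (log2) in the fit described; the causes were not tested. The genes called in P195A/+, P195A/P195A and P195A/- against wt, P195A/- against P195A/P195A and the test over 4 genotypes were 2, 10, 7, 8 and 23. They were 19, 16, 169, 52 and 231 with DESeq2, and 7, 12, 16, 29 and 54 with no filter on low counts. Using only the libraries compared gave 11, 5, 16 and 5 for the pairs, females only 0 in P195A/+ and mice of 48 days 5 in P195A/P195A. Leaving out 1 library gave 1 to 2, 5 to 13, 2 to 6, 5 to 15 and 11 to 47 (47 without P195A/P195A replicate 3). Leaving out each wt replicate gave 2 in P195A/- against wt. Age as a covariate, chosen after seeing the data like the removal of the GC and length trend and of replicates 2 and 3 (singly for the spread, and together), gave 5, 1, 4 and 15 from P195A/P195A onward, and the trend removal 13 in P195A/- against P195A/P195A. Same-numbered libraries deviated together at r of -0.246 to 0.398 (others -0.462 to 0.387), so numbers did not pair animals; the replicate block gave 13 over 4 genotypes and changed no marker's call, with C1qb 0.0024 in P195A/+ against wt, and Tmem119 -0.030 and C1qa 0.10 in P195A/- against P195A/P195A.

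All P195A/+ mice shared 1 age, as did all P195A/- mice. The age covariate thus rested on wt and P195A/P195A mice alone, and largely on the wt mouse of 74 days. Values with age for P195A/+ and P195A/- are therefore extrapolated. Turned log2 fold changes in P195A/+ against wt were, with age, Tmem119 0.098 and C1qb 0.26. With females only they were Tmem119 0.076, C1qb 0.079 and Aif1 -0.28. In P195A/P195A against wt they were, with age, P2ry12 0.043, C1qa 0.13 and Trem2 0.096; at 48 days, Cx3cr1 0.072, P2ry12 0.20, Tmem119 0.12, C1qa 0.37, Trem2 0.24, Aif1 0.083 and Cd68 0.11; with females, Cx3cr1 0.057, P2ry12 0.14, Tmem119 0.0028, C1qa 0.14 and Trem2 0.056. With limma-voom, C1qb was -0.064 and Aif1 0.0050; with no filter C1qb -0.0043, with only the libraries compared P2ry12 0.0081, with sex C1qb -0.023, with the trend removed C1qa 0.0015, and without replicates 2 and 3 P2ry12 0.19 and C1qb -0.40. In P195A/- against wt they were, with age, Tmem119 0.036, C1qa 0.17, C1qb 0.15 and Trem2 0.094, with females Cx3cr1 0.034, P2ry12 -0.020, Tmem119 0.068 and C1qb 0.084, and Cd68 -0.021 with the trend removed and -0.0087 with limma-voom. In P195A/- against P195A/P195A they were C1qa 0.046 with age, 0.0074 with sex and 0.022 with limma-voom, P2ry12 -0.16 and Csf1r -0.12 with females, Tmem119 -0.038 and Csf1r -0.010 with the trend removed, and P2ry12 -0.011, C1qa 0.11, C1qb 0.26 and Trem2 0.16 without replicates 2 and 3.

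Over the fits leaving out 1 library, ranges that crossed 0 were Tmem119 -0.19 to 0.074, C1qb -0.096 to 0.093, Trem2 -0.060 to 0.18 and Aif1 -0.11 to 0.64 in P195A/+ against wt. In P195A/P195A against wt they were Cx3cr1 -0.11 to 0.075, P2ry12 -0.14 to 0.16, Csf1r -0.11 to 0.19, C1qa -0.27 to 0.10, C1qb -0.39 to 0.17, Trem2 -0.38 to 0.0020 and Aif1 -0.26 to 0.33. In P195A/- against wt they were Cx3cr1 -0.15 to 0.055, Tmem119 -0.23 to 0.043, C1qa -0.12 to 0.028, C1qb -0.25 to 0.012 and Cd68 -0.21 to 0.22. In P195A/- against P195A/P195A they were Cx3cr1 -0.15 to 0.077, Tmem119 -0.12 to 0.22, Csf1r -0.12 to 0.19, C1qa -0.16 to 0.22, C1qb -0.30 to 0.26 and Trem2 -0.24 to 0.15. DESeq2 gave no adjusted p for Aif1, Cd68, C1qa, Trem2, C3, Ifit1, Ifit3 and Tgfb1 in 1 or more tests. The planned editing tests and their alternatives were not run, since no site lay in a marker. Aif1 and Cd68 are limited by their low counts.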

Other observations

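Of 5 oligodendrocyte markers, 5 stood higher than wt in the P195A/+ mice, 2 of 5 in P195A/P195A mice and 4 of 5 in P195A/- mice, at median log2 fold changes of 0.26, -0.049 and 0.23, and 0 passed the adjusted test (edgeR). Their summed levels were 5187 to 6374 CPM in P195A/+, 4801 to 5400 CPM in P195A/P195A, 5747 to 6018 CPM in P195A/- and 4649 to 5362 CPM in wt. Opalin, the one with the smallest p, averaged 16.9 ± 0.72 CPM in P195A/+, 14.4 ± 1.62 CPM in P195A/- and 10.8 ± 1.63 CPM in wt (adjusted p = 0.543 and 0.327, edgeR). Mbp, which encodes myelin basic protein, averaged 1970 ± 170 CPM in P195A/- and 1570 ± 112 CPM in P195A/P195A (adjusted p = 0.364, edgeR). Of neuronal genes, Gad1 averaged 419 ± 18.7 CPM in P195A/-, 511 ± 42.7 CPM in P195A/P195A and 528 ± 23.2 CPM in wt (adjusted p = 0.359 and 0.188 for P195A/- against each, edgeR), and Snap25 averaged 1190 ± 114 CPM in P195A/+ and 1420 ± 83.5 CPM in wt (adjusted p = 0.999, edgeR). The astrocyte gene Slc1a3 averaged 645 ± 46.6 CPM in P195A/P195A, 619 ± 45.5 CPM in P195A/- and 735 ± 33.6 CPM in wt (adjusted p = 0.83 and 0.31, edgeR). The pericyte gene Rgs5 averaged 121 ± 18.5 CPM in P195A/+, 124 ± 5.89 CPM in P195A/- and 102 ± 9.94 CPM in wt (adjusted p = 0.999 and 0.346, edgeR). Haemoglobin genes and Alas2 were lower in 5 of 5 in each mutant group against wt and spread widely within groups (248 to 904 CPM in P195A/-, 302 to 1189 CPM in wt), and 0 passed (edgeR). Oasl2 averaged 1.36 ± 0.349 CPM in P195A/+ and 2.81 ± 0.511 CPM in wt (adjusted p = 0.936, edgeR). Ifit3 averaged 2.81 ± 1.12 CPM in P195A/P195A and 4.61 ± 1.31 CPM in wt (adjusted p = 0.83, edgeR).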
